A study of Homo sapiens with 2 samples.

Results

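Mirtrons are short introns whose spliced and debranched lariat folds into a hairpin. The 9 miRNAs described here are the 5p arms of such introns, numbered from miR-1225 to miR-1238. They were found by their names in the scanner output of both arrays, which gave 9 of 2549 miRNAs on the array. The RNA was that of exosomes, vesicles shed by the human line FaDu, a hypopharyngeal squamous cell carcinoma. The oe-NC group was FaDu cells given a control plasmid, and the oe-HOTTIP group was FaDu cells given a plasmid that overexpresses the lncRNA HOTTIP. The labels name a lentivirus for both plasmids, while the methods describe lipid transfection for FaDu cells. Each group has 1 array, so differences have no replicate check and no p-values, and errors are SDs over the repeated spots of a probe on an array, pooled over the probes of a miRNA. Differences between the probes of a miRNA are not in these within-probe SDs, and the spot ranges show them.

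The labels of each array contradict themselves, since title and treatment name one group and the free-text description the other. The arrays are named here by their titles, as the oe-NC array and the oe-HOTTIP array, and every direction below turns round if the descriptions are right. The deposited table of normalized values has its columns the other way round from the scanner output and gives the opposite direction for each difference described. HOTTIP is not measured on a miRNA array and could not settle the labels. The paper drew its candidates, miR-19a-3p and miR-19b-3p among them, from miRNAs that it reports as downregulated. By the titles these 2 were higher on the oe-HOTTIP array, with scaled log2 differences of 0.61 and 0.35, both short of 2-fold. The direction used here is thus opposite to that of the paper for them, and which labels are right was not settled. The methods label a fixed amount of RNA per array, so the signals give neither the number of vesicles nor the amount of a miRNA per vesicle.

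In the mirtron pathway the spliceosome cuts out the intron in place of the nuclease Drosha, and Dicer then trims the hairpin as it does for other miRNA precursors. The 5p arm starts at or near the 5′ splice site and the 3p arm ends at or near the 3′ splice site, with its stretch of pyrimidines. For miR-1225 and miR-1228, a route that depends on Drosha and not on splicing has also been described. The other arm of the same intron is therefore the closest comparison that a mirtron offers, and the host genes themselves were not measured.

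The sequences of RefSeq, build GRCh38.p14, show these intron ends. Of the hairpins that carry the 9 miRNAs, 10 of 10 begin with GU and end with AG, against 36 of 1562 hairpins in the RefSeq table (2.30%). There are 10 hairpins because miR-1233-5p comes from 2 loci. The hairpins of the 2 members with a difference or bound for both arms, miR-1228 and miR-1238, and that of miR-1237 are printed with both ends in capitals.
MIR1228: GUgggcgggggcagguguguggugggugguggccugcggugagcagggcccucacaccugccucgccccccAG
MIR1238: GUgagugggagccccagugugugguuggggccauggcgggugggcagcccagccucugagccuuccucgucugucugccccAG
MIR1237: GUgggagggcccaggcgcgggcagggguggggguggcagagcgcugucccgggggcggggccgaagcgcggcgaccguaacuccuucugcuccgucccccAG
MIR1228 spans chr12:57194504-57194576 on the plus strand, inside LRP1, a large endocytic receptor. MIR1238 spans chr19:10552122-10552204 on the plus strand, inside ATG4D, a protease of autophagy. MIR1237 spans chr11:64368602-64368703 on the plus strand, inside RPS6KA4, a stress-activated kinase. Exon borders were not used here, so the place in the host rests on gene spans and on the hairpin ends.

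The mature 5p arms are shown with the seed, bases 2 to 8, in capitals, since the seed decides most target pairing.
hsa-miR-1225-5p: gUGGGUACggcccagugggggg
hsa-miR-1226-5p: gUGAGGGCaugcaggccuggaugggg
hsa-miR-1227-5p: gUGGGGCCaggcggugg
hsa-miR-1228-5p: gUGGGCGGgggcaggugugug
hsa-miR-1229-5p: gUGGGUAGgguuugggggagagcg
hsa-miR-1233-5p: aGUGGGAGgccagggcacggca
hsa-miR-1236-5p: uGAGUGACaggggaaaugggga
hsa-miR-1237-5p: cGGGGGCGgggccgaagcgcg
hsa-miR-1238-5p: gUGAGUGGgagccccagugugug
The 9 seeds are all different. Those of miR-1225-5p and miR-1229-5p differ by 1 substitution, C8G, with the base of miR-1225-5p first and positions counted from 1 at the 5′ end. Of the 9, 6 begin with the GU of the intron itself, against 3.51% of the 2248 miRNAs on the array that have a RefSeq sequence. miR-1236-5p begins at base 2 of its hairpin and miR-1233-5p at base 4. miR-1237-5p begins at base 50 of 102, far from the splice site, so it is a 5p arm by name and not by the end of its intron. Their G content ran from 47.8% to 66.7% with a median of 59.1%, against a median of 27.3% over the 2248 miRNAs. The remaining hairpins lie inside PKD1 (miR-1225, polycystin 1), DHX30 (miR-1226, an RNA helicase), PLEKHJ1 (miR-1227), MGAT4B (miR-1229, a glycosyltransferase of N-glycan branching), NELFE (miR-1236, a subunit of the negative elongation factor) and the paralogs GOLGA8A and GOLGA8B (miR-1233).

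Detection is the call that the scanner software made per miRNA. On the oe-NC array, 2 of the 9 mirtron 5p arms were detected, against 12.9% of all 2549 miRNAs. On the oe-HOTTIP array, 6 of the 9 were detected, against 15.3% of all. The 2 detected on the oe-NC array, miR-1225-5p and miR-1229-5p, were among the 6. miR-1227-5p, miR-1228-5p, miR-1236-5p and miR-1238-5p were detected on the oe-HOTTIP array alone, and miR-1226-5p, miR-1233-5p and miR-1237-5p on neither.

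Each array had 53144 spots, and each miRNA had 20 spots per array before outlier spots were left out. The oe-HOTTIP array was brighter before scaling, with a median unscaled log2 difference of 0.67 over the 261 miRNAs detected on both arrays. Each array was therefore divided by its own 90th percentile over these miRNAs, 279.9 and 439, before log2 differences were taken, after which their median was 0.024. Of the epithelial markers, miR-200c-3p, miR-141-3p and miR-205-5p were detected on both arrays, with log2 differences from -0.64 to 0.17. Of the blood cell markers, 3 of 4 were detected on both arrays, 1 of them at least 2-fold lower on the oe-HOTTIP array, with miR-142-3p on neither and miR-451a at an intensity of 2233 and 2552. The part of blood cell RNA in the mirtron values was not tested.

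hsa-miR-1229-5p was detected on both arrays and was higher on the oe-HOTTIP array. Its intensity after background subtraction was 67.0 ± 9.72 (within-probe SD, 19 spots) on the oe-NC array and 366 ± 19.9 (within-probe SD, 18 spots) on the oe-HOTTIP array. The spots ran from 45.7 through a median of 70.2 to 79.8 on the former and from 332 through 365 to 402 on the latter, with no overlap. After scaling, the log2 difference was 1.80 with a spread of 0.22 from the within-probe SDs, a 3.48-fold higher signal. Both of its probes gave this direction, with log2 differences of 1.79 and 1.81.

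hsa-miR-1225-5p differed the other way. Its intensity was 107 ± 18.3 (within-probe SD, 20 spots) on the oe-NC array and 57.8 ± 5.25 (within-probe SD, 18 spots) on the oe-HOTTIP array. The spots ran from 61.7 through a median of 108 to 140.3 and from 48.1 through 57.2 to 70.6, so that some overlapped before scaling. Divided by the 90th percentile of their array, they ran from 0.220 to 0.501 and from 0.110 to 0.161 and no longer overlapped. Over all spots, probe differences included, the SDs were 22.8 and 6.61. The log2 difference was -1.53 with a spread of 0.28, or 0.35 over all spots, a 2.89-fold lower signal, and -0.88 without scaling, short of 2-fold. Its probes stood at -1.61 and -1.44. The 2 mirtron 5p arms that were measured on both arrays, whose seeds differ by that 1 substitution, thus stood on opposite sides.

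The 4 arms detected only on the oe-HOTTIP array have lower bounds in place of differences. The dim side of the bound was the miRNA's own signal on the oe-NC array or the lowest signal detected there, whichever was higher. That lowest detected signal, 0.976, belongs to miR-1236-3p, the other arm of a hairpin described here, and is dimmer than the negative control spots, whose mean was 3.87 ± 2.37 (SD, 976 spots). The bounds are therefore also given with a higher floor of 5.32, the lowest signal at which 50% of the miRNAs around it in rank were detected, and with the mean plus 3 SD of the negative control spots, 11.0.

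hsa-miR-1228-5p went from -2.41 ± 1.74 (within-probe SD, 20 spots) on the oe-NC array to 20.8 ± 3.35 (within-probe SD, 20 spots) on the oe-HOTTIP array. The spots ran from -5.26 through -2.36 to 0.830 and from 13.2 through 20.5 to 27.0, and 20 of 20 were well above background on the latter. The signal was at least 13.5-fold higher, at least 2.49-fold with the higher floor and at least 1.20-fold with the floor at the negative controls. Its 3 probes read 17.1, 22.8 and 22.4 on the oe-HOTTIP array and were all below 0 on the other.

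hsa-miR-1238-5p had an intensity of 4.65 ± 2.12 (within-probe SD, 19 spots) on the oe-NC array and 23.9 ± 3.81 (within-probe SD, 19 spots) on the oe-HOTTIP array. Its spots ran from 1.09 through 4.69 to 8.16 and from 15.2 through 24.0 to 29.2, without overlap. The signal was at least 3.27-fold higher, at least 2.86-fold with the higher floor and at least 1.38-fold with the floor at the negative controls.

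hsa-miR-1236-5p had an intensity of 2.78 ± 2.01 (within-probe SD, 19 spots) on the oe-NC array and 14.2 ± 2.43 (within-probe SD, 17 spots) on the oe-HOTTIP array. Its spots ran from -0.075 through 2.28 to 7.35 and from 9.48 through 14.8 to 18.2, without overlap before scaling. After scaling they overlapped, with the highest at 0.0263 on the oe-NC array and the lowest at 0.0216 on the oe-HOTTIP array. The signal was at least 3.26-fold higher and at least 1.71-fold with the higher floor, short of 2-fold, and no fold could be given with the floor at the negative controls.

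hsa-miR-1227-5p, the shortest of the 9 at 17 bases, is the least certain of the 4. Its intensity was 1.24 ± 2.55 (within-probe SD, 19 spots) on the oe-NC array and 6.64 ± 2.43 (within-probe SD, 20 spots) on the oe-HOTTIP array. The spots ran from -2.46 through 0.732 to 6.94 and from 0.573 through 7.00 to 10.6, and they overlapped. The scanner software called it detected, yet 0 of its 20 spots on the oe-HOTTIP array were well above background. The bound of 3.40-fold higher was lost with either higher floor.

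The arms detected on neither array have no fold. miR-1226-5p stood at -1.23 ± 2.06 (within-probe SD, 20 spots) on the oe-NC array and 4.53 ± 2.07 (within-probe SD, 20 spots) on the oe-HOTTIP array. miR-1233-5p stood at -1.58 ± 2.01 (within-probe SD, 20 spots) and 0.989 ± 1.36 (within-probe SD, 19 spots). miR-1237-5p, whose place in the hairpin is away from the splice site, stood at -3.80 ± 1.46 (within-probe SD, 20 spots) and -2.85 ± 1.77 (within-probe SD, 20 spots). For these 3 the means lay under the mean plus 3 SD of the negative control spots, 11.0 and 10.08.

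**Figure D1:**
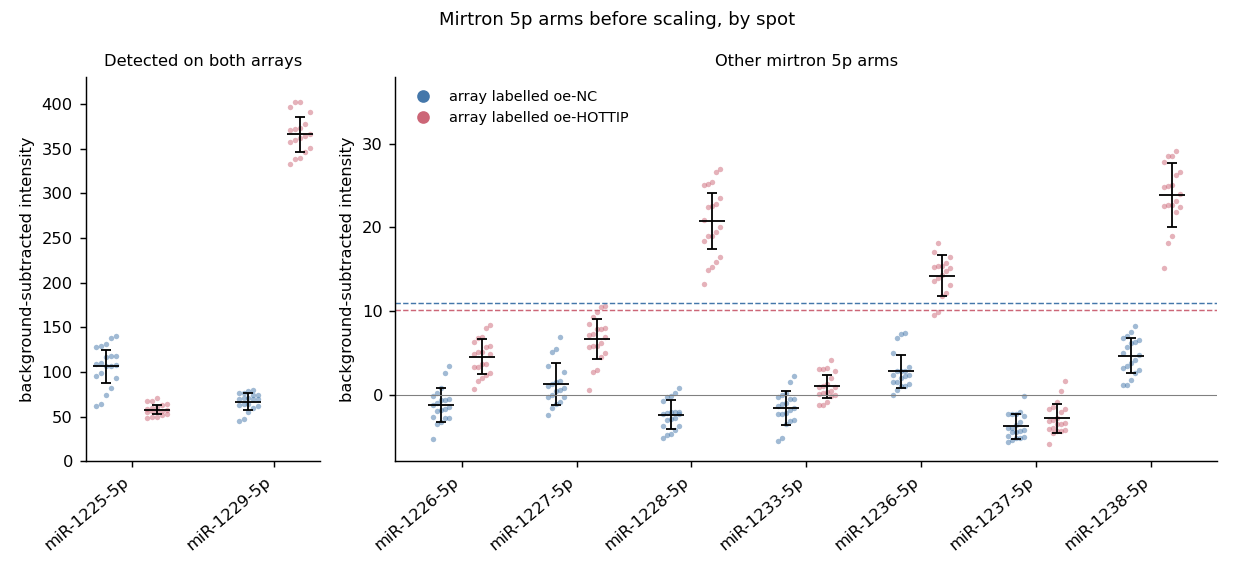
Background-subtracted intensity before scaling (y axis, linear) of the 9 mirtron 5p arms on the oe-NC and oe-HOTTIP arrays; each dot is a spot, the bar and whiskers are the mean and within-probe SD, and dashed lines mark the mean plus 3 SD of the negative control spots of each array. miR-1229-5p stands at 366 against 67.0, and miR-1225-5p is the one arm with a lower mean on the oe-HOTTIP array. The means of miR-1228-5p, miR-1236-5p and miR-1238-5p lie above the dashed lines on that array only, and some spots of miR-1236-5p there lie below them, the lowest at 9.48.

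At the 2-fold threshold of the methods, 5 of the 9 arms were higher on the oe-HOTTIP array, against 6.08% of all 2549 miRNAs, and 1 was lower, against 4.51% of all. Among the 457 miRNAs detected on at least 1 array, 33.9% were higher, and 5 of the 6 mirtron 5p arms detected were. With the higher floor 3 arms were higher (miR-1228-5p, miR-1229-5p and miR-1238-5p), against 3.37% of all miRNAs. With the floor at the negative controls 1 was higher, miR-1229-5p, against 2.24% of all. The 4 arms with bounds passed the detection filter through the oe-HOTTIP array alone, where they were high. The median log2 difference of the 2 arms detected on both arrays was 0.13, against 0.024 over the 261 such miRNAs. With 1 array per group these are descriptions of a pair of arrays.

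Of the 3p arms of the same hairpins, 2 were lower on the oe-HOTTIP array and none was higher. Of the 9, 8 were analysed here, and that of miR-1225 was not. On the oe-NC array, 4 of the 8 were detected, and on the oe-HOTTIP array 3. Of all 875 miRNAs named 3p, 102 and 82 were detected, and 52 were at least 2-fold lower and 20 higher. The counts of lower and higher arms use the 2-fold threshold, and the 2 lower ones were miR-1228-3p and miR-1238-3p. miR-1226-3p, miR-1227-3p, miR-1229-3p and miR-1233-3p were detected on neither array. The 3p arms of miR-1228 and miR-1238, which are rich in pyrimidines, are shown with their seeds in capitals.
hsa-miR-1228-3p: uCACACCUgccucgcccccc
hsa-miR-1238-3p: cUUCCUCGucugucugcccc

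miR-1228-3p had an intensity of 46.8 ± 5.03 (within-probe SD, 18 spots) on the oe-NC array and 17.7 ± 1.75 (within-probe SD, 19 spots) on the oe-HOTTIP array. The spots ran from 31.5 through 42.8 to 63.2 and from 12.8 through 18.2 to 20.5, without overlap. Over all spots, probe differences included, the SD on the oe-NC array was 9.63, with the probes at 54.9 and 38.7. The log2 difference was -2.05 with a spread of 0.21, or 0.34 over all spots, a 4.15-fold lower signal, with its probes at -2.20 and -1.86. The 5p arm of the same intron was at least 13.5-fold higher on the oe-HOTTIP array, or at least 2.49-fold with the higher floor. With the floor at the negative controls that bound was 1.20-fold, short of 2-fold.

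miR-1238-3p had an intensity of 18.6 ± 2.52 (within-probe SD, 20 spots) on the oe-NC array and 9.91 ± 2.88 (within-probe SD, 20 spots) on the oe-HOTTIP array. Its spots ran from 10.9 through 19.0 to 24.2 and from 3.53 through 9.59 to 15.2, and they overlapped before scaling. Of its spots on the oe-HOTTIP array, 6 of 20 were well above background. The log2 difference was -1.56 with a spread of 0.46, a 2.95-fold lower signal, and its 4 probes ran from -1.93 to -1.35. It fell short of 2-fold without scaling, at -0.91, and with normexp and an offset of 50, at -0.75. For miR-1228 and miR-1238 the 5p signal was higher and the 3p signal lower on the oe-HOTTIP array also before scaling, when miR-1228-3p stood at -1.40. The 5p directions are those of bounds, and they gave no value with normexp and an offset of 50.

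miR-1237-3p differed little, with 15.0 ± 2.43 (within-probe SD, 19 spots) and 19.9 ± 3.47 (within-probe SD, 20 spots). Over all spots the SDs were 4.36 and 8.62, with the probes at 18.6 and 11.4 on the oe-NC array and 27.6 and 12.2 on the other. Its log2 difference was -0.24 after scaling, with a spread of 0.34 or, over all spots, 0.75, and 0.41 without scaling, so its sign depends on the scaling. miR-1236-3p was called detected on the oe-NC array, but its mean there was 0.976 ± 1.77 (within-probe SD, 19 spots), with 0 spots well above background, and it has no fold. On that array 1 of its 4 probes read 7.98, while the other three were below 0, and the SD over all spots was 4.54.

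**Figure D2:**
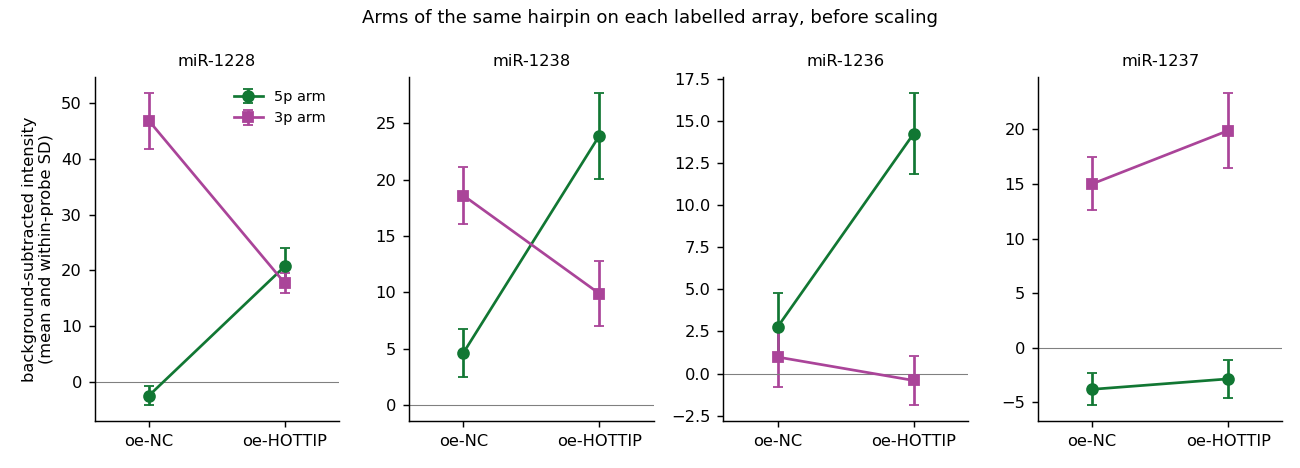
Background-subtracted intensity before scaling (y axis, linear, its own range in each panel) of the 5p arm (circles) and 3p arm (squares) of 4 hairpins on the oe-NC and oe-HOTTIP arrays, as mean and within-probe SD; the arms are read by different probes, so only the direction of each line is to be read. For miR-1228 and miR-1238 the 5p line goes up and the 3p line down, from 46.8 to 17.7 for miR-1228-3p and from 18.6 to 9.91 for miR-1238-3p.

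Opposite arms were not particular to these introns. Over the 810 hairpins with both arms on the array, 30 had a value for each arm, and in 13 of these (43.3%) the signs were opposite. In 11 of the 13 the 5p arm was higher and the 3p arm lower on the oe-HOTTIP array, miR-1228 and miR-1238 included. With the higher floor it was 9 of 23, of which 7 had the 5p arm higher. Over all 860 miRNAs named 5p, 72 were at least 2-fold higher and 26 lower, and over all 875 named 3p, 20 were higher and 52 lower. With the higher floor these counts were 35 and 23 for 5p, and 14 and 38 for 3p.

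Of the other mirtrons of the same early description, miR-877-5p, miR-1224-5p, miR-1224-3p and miR-1234-3p were analysed here. miR-1224-5p was detected only on the oe-HOTTIP array, with 5.25 ± 2.28 (within-probe SD, 20 spots) and 17.4 ± 2.60 (within-probe SD, 18 spots). Its signal was at least 2.11-fold higher, at least 2.08-fold with the higher floor and at least 1.01-fold with the floor at the negative controls. miR-1234-3p was detected on both, with 25.1 ± 3.86 (within-probe SD, 20 spots) and 12.6 ± 2.83 (within-probe SD, 19 spots), which is -1.65 on the log2 scale with a spread of 0.39. The 5p arm was again the higher one and the 3p arm the lower one, here from different introns. miR-877-5p and miR-1224-3p were detected on neither array.

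Base composition moved with detection. Of the 348 miRNAs with a G content of 45% or more, which include the 9 mirtron 5p arms, 31.3% were detected on the oe-NC array and 44.0% on the oe-HOTTIP array. Of the 1295 with a G content under 30%, 8.34% and 6.87% were. In the G-rich group 22.4% were at least 2-fold higher on the oe-HOTTIP array and 8.91% lower, and in the G-poor group 1.16% and 4.17%. With the higher floor the G-rich group held 44 higher and 30 lower miRNAs, and the G-poor group 5 and 33. Over the 218 miRNAs with a sequence that were detected on both arrays, G content and log2 difference had a Pearson's r of 0.13 and a Spearman's rho of 0.16. These are correlations across miRNAs of the same pair of arrays, given as a description. The part of base composition in the mirtron values was not tested.

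**Figure D3:**
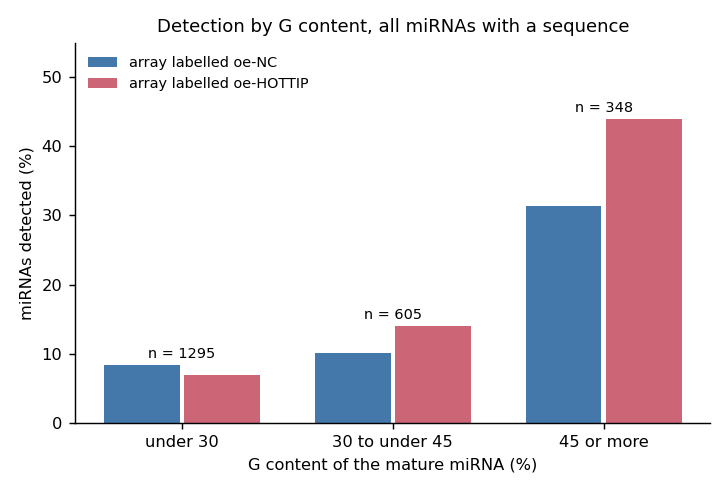
Share of miRNAs detected (y axis, percent) by G content of the mature sequence (x axis, percent) on the oe-NC and oe-HOTTIP arrays, for the 2248 miRNAs with a RefSeq sequence; n is the number of miRNAs in each class. The class of 45% or more, with 348 miRNAs and all 9 mirtron 5p arms, was detected most often, at 31.3% and 44.0%.

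By the distance between pairs of scaled log2 values, the miRNAs whose signals on both arrays lay nearest to those of miR-1229-5p were miR-4497, miR-197-5p and let-7f-5p, at 0.20, 0.54 and 0.62. With 2 arrays this likeness rests on 2 values each. Other miRNAs on the array share a whole seed with 3 of the 9. miR-6778-5p, with the seed of miR-1233-5p, was detected on both arrays, while miR-4488, with that of miR-1237-5p, and miR-4758-5p, with that of miR-1238-5p, were detected on neither. miR-1238-5p was thus detected on the oe-HOTTIP array where a miRNA of the same seed was not.

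The differences of miR-1229-5p and miR-1225-5p kept their signs under the 17 alternatives that follow the names of the scanner arrays. They ranged from 1.18 to 2.45 for miR-1229-5p and from -1.71 to -0.88 for miR-1225-5p on the log2 scale. Some of these alternatives could not move them, since they change only bounds or leave miRNAs out. These were both higher floors, the filter on the negative controls and the requirement that all probes agree in direction. The bounds moved more, from 1.20-fold to 21.3-fold for miR-1228-5p, from 1.38-fold to 8.87-fold for miR-1238-5p, from 1.42-fold to 5.29-fold for miR-1236-5p and from 1.05-fold to 5.34-fold for miR-1227-5p, where a bound could be given. The 1.05-fold of miR-1227-5p came from the normalized table with its columns exchanged, where a value at the floor was counted as 0. With normexp and an offset of 50 none of the 4 arms had a bound.

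**Figure D4:**
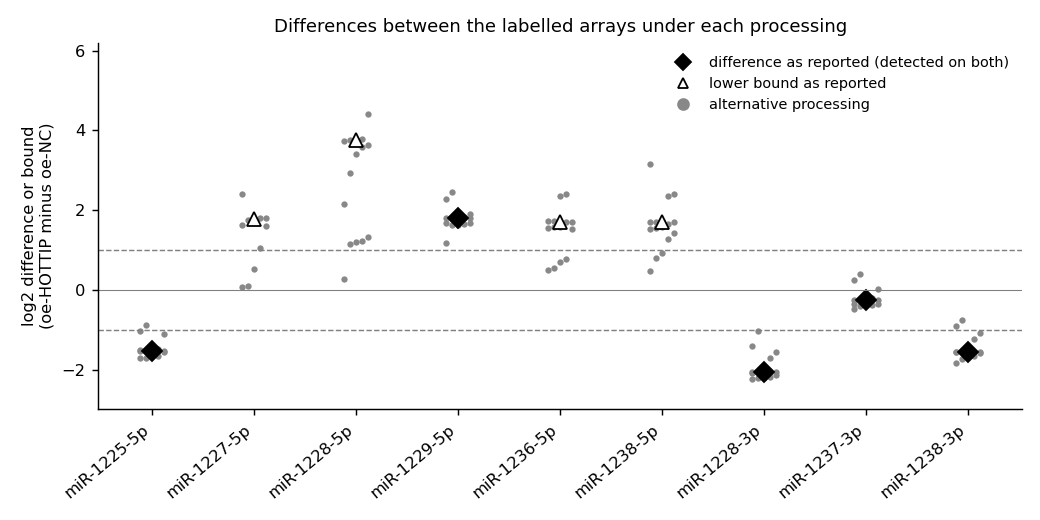
Log2 difference or bound between the oe-HOTTIP array and the oe-NC array (y axis) for 6 mirtron 5p arms and 3 of their 3p arms; black diamonds are differences and open triangles lower bounds as reported, grey dots are the alternatives, and dashed lines mark 2-fold. The deposited normalized table is left out with its columns as named and is drawn with its columns exchanged. miR-1229-5p stays above the upper line and miR-1228-3p below the lower one in every alternative drawn, while the bounds spread from near 0 to 4.41 and miR-1237-3p lies on both sides of 0.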

How the data were processed

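Exosome RNA of FaDu cells was measured on 1 one-colour Agilent miRNA array per group. The authors deposited the Feature Extraction output, with a background-subtracted intensity per spot, median and background intensities, a summed intensity per miRNA and detection flags. The version is 11.5.1.1 in the scanner output and 10.10 in the submitters' processing notes. The authors also deposited normalized log2 values, made with GeneSpring and a 90th percentile according to the methods, with values not detected at a floor of 1e-06.

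Control and outlier spots were left out, and spots were averaged per probe and probes per miRNA. Scaling, before log2, used the 90th percentile of the 261 miRNAs that both arrays detected. The spread of a log2 difference is the root of the summed squares of the relative within-probe SDs of both arrays, divided by the natural log of 2. A bound under 1 gave no fold. normexp used median spot signals. The members and lists were chosen with earlier results of these data known. The miRNAs named are the 9 members, their 3p arms, 5 other mirtrons (4 analysed here), the nearest 3 to the member with the highest mean scaled signal and those sharing a seed. With 1 array per group no test was run, and precision is limited by that number. The tools were limma 3.58.1 in R 4.3.3, and pandas 2.3.3, numpy 2.4.6 and matplotlib 3.10.9 in Python 3.11.15.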

Additional observations from a re-analysis of the deposited data

How the results depend on the processing

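No paired analysis was possible because there is 1 array a group, and for the same reason no replicate could be left out. Of the 9 mirtron 5p arms, 6 differed by at least 2-fold, 5 higher and 1 lower on the oe-HOTTIP array. The total was 5 without scaling, with the summed intensity, with outlier spots kept and with the normalized table, its columns exchanged. It was 4 with the brightest probe, with over 50% of spots well above background and with the higher floor. It was 3 with normexp without an offset and with only miRNAs above the negative controls. It was 2 with normexp and an offset of 50 and with the floor at the negative controls plus 3 SD. The number higher was 4 with the summed intensity, with outlier spots kept and with the exchanged columns. It was 3 with the brightest probe, with over 50% of spots well above background and with the higher floor. It was 2 with normexp without an offset and with only miRNAs above the negative controls, and 1 with normexp and an offset of 50 and with the floor at the negative controls. Without scaling 0 were lower, since miR-1225-5p then fell short of 2-fold. The lower counts with higher floors and with filters follow from fewer bounds passing, and for the others the cause was not tested. Shares over all miRNAs were taken for the main setting and for both higher floors. For the other alternatives none was taken, so whether the arms moved more than all miRNAs did was not tested. The number of hairpins with arms in opposite directions, examined after the values of the 3p arms were seen, was 2, and was 0 with normexp and an offset of 50, 1 with only miRNAs above the negative controls, and 3 with the summed intensity, with the brightest probe and with normexp without an offset. The floor at the negative controls and the requirement that all probes agree in direction were chosen after the data were seen.

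With the columns of the normalized table taken by their names, 1 arm was higher and 4 lower, and the signs turned: 1.71 for miR-1225-5p, -0.069 for miR-1227-5p, -2.16 for miR-1228-5p, -1.63 for miR-1229-5p, -1.55 for miR-1236-5p, -2.40 for miR-1238-5p, 2.24 for miR-1228-3p and 1.84 for miR-1238-3p. For miR-1227-5p, miR-1228-5p, miR-1236-5p and miR-1238-5p, 1 column was at its floor and was counted as 0. The size of their values is thus that of the other column, and they are not bounds as defined above. The columns of that table follow the other array each, as measured across miRNAs by Spearman's rho against the summed intensity, which for the oe-NC column was 0.77 with the oe-NC array and 1.00 with the oe-HOTTIP array.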
